A study of Mus musculus with 12 samples.

Results

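The genes of the MHC class II antigen presentation pathway were followed in the mouse B lymphoma line CH12F3-2A, before and after a cytokine mixture that induces class switching and with or without a guide RNA against Nop16. The genes were taken by name: Ciita, H2-Aa, H2-Ab1, H2-Eb1, Cd74, H2-DMa, H2-DMb1, H2-DMb2, H2-Oa and H2-Ob. All 10 were found among the 56941 genes of the count table, and all 10 were among the 16794 genes with enough counts to be tested. RNA of 12 libraries was sequenced, 3 for each of 4 groups, and the series text calls the 3 libraries of a group biological replicates. Nothing says whether they came from separate transfections, so p-values measure the spread between these libraries only. The study asks what the nucleolar protein NOP16 does in the switch from IgM to IgA.

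Every group received the plasmid pX459, which carries Cas9 and a puromycin resistance gene, and every group was selected with puromycin for 72 h. In the sgCtr groups the plasmid encoded a non-targeting guide, and in the sgNop16 groups a guide for Nop16, whose site is not stated. The sgCtr_no and sgNop16_no groups were left without stimulation. The sgCtr_CIT and sgNop16_CIT groups received CIT for 24 h, a mixture given in the protocol as anti-CD40L (1 μg/ml), mouse IL-4 (20 ng/ml) and human TGF-β (1 ng/ml). The series text names CD40L where the protocol has anti-CD40L. Effects of the loss of Nop16 and other effects of this guide cannot be told apart, since cells with a guide to another site of Nop16 were not analysed here. The sources do not say whether clones were picked.

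MHC class II molecules present peptides from endosomes to CD4+ T cells, and B cells carry them throughout most of their life. An alpha and a beta chain pair in the endoplasmic reticulum with the invariant chain, Cd74, which fills the groove and steers the complex to endosomes. There proteases trim Cd74 to a short peptide, H2-DM exchanges that peptide for others, and H2-O restrains H2-DM. The genes share promoter elements, the X and Y boxes, bound by the RFX, CREB and NF-Y complexes, and the transactivator encoded by Ciita is recruited by these complexes. Signals through CD40 and the IL-4 receptor are known to raise class II on B cells.

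Total counts lay between 38866418 and 48615177 per library. Levels are given as CPM, counts scaled to a common library size with TMM factors, and a gene was called where its adjusted p (Benjamini-Hochberg, edgeR's quasi-likelihood test over all tested genes) was under 0.05. Nop16 itself was lower with its guide in both states. The log2 differences were -0.31 ± 0.04 (SE, edgeR adjusted p = 0.000109) without and -0.23 ± 0.04 (adjusted p = 0.00204) with CIT. Most of its mRNA thus remained in sgNop16 cells, which does not show how much NOP16 protein was left. The 8 B cell markers summed to between 3715 and 4257 CPM in every library, and all 8 were detected. Ighm made up most of that sum, with group means from 2129 to 2530 CPM, so the sum does not show the other markers. Cd22 fell with CIT from 110 ± 3.70 to 4.90 ± 2.25 CPM (SD, n = 3) in sgCtr cells. In sgNop16 cells it fell from 115 ± 2.27 to 3.41 ± 0.168 CPM. Among markers of other cells that carry class II, 5 of 10 macrophage markers (Cd14, Lyz2, Fcgr1, C1qa and Mertk) and 3 of 10 dendritic cell markers (Clec9a, Cd209a and Clec10a) had 0 counts in all 12 libraries. Others of the same lists were detected, such as Ccr7, Batf3, Zbtb46, Cd68 and Csf1r, and the lists are described further below. In bulk RNA a larger share of expressing cells and more RNA per cell cannot be told apart.

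The promoter windows of the members are shown first. Whether their letters bear on the changes given below was not tested. Windows from 250 bases before to 50 bases after the start of transcription (RefSeq, GRCm38.p6) were matched for 7 of the 10 members; the others were Ciita, H2-Ab1 and Cd74. In the members the letters TGATTGG, the core of the Y box, were searched on the strand of the gene only. They stood in the windows of 6 of these 7 members. Over 32817 promoters, searched on both strands, 7.8% held them, so the member count comes from a narrower search. The letters GNAAC, found in X boxes, are common, with 84.9% of promoters holding them on either strand. GNAAC followed at 22 to 27 bases by TGATTGG was found in 5 members on the strand of the gene. In 0.165% of promoters this pair was found on either strand, with both motifs on the same one. Both motifs and their spacing were chosen after these sequences had been seen. The stretches below run 5′ to 3′ on the strand of the gene, with the matched GNAAC and TGATTGG in capitals.
H2-Aa (alpha chain, chr17:34287859-34287918, minus strand): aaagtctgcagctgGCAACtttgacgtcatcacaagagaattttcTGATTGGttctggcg
H2-Eb1 (beta chain, chr17:34305761-34305820, plus strand): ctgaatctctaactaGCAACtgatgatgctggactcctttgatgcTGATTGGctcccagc
H2-DMb1 (peptide editor, chr17:34153083-34153142, plus strand): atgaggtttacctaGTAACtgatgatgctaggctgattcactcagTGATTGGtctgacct
H2-DMb2 (peptide editor, chr17:34145112-34145171, plus strand): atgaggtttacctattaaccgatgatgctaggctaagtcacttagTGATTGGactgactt
H2-Oa (inhibitor of the editor, chr17:34092289-34092348, plus strand): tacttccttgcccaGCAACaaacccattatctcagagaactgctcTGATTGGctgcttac
H2-Ob (inhibitor of the editor, chr17:34238801-34238860, plus strand): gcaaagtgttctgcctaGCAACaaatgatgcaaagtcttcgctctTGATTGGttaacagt

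The gap between the capitals was 26 bases in H2-Aa, H2-DMb1 and H2-Oa, 25 in H2-Eb1 and 23 in H2-Ob. TGATTGG stood in the window of H2-DMb2 without a GNAAC at these distances. On the strand of the gene it was found in neither of the 2 windows of H2-DMa, and the other strand was not searched there. H2-Oa and H2-Ob, the only members called for the guide after CIT, held the same pair of motifs as H2-Aa and H2-Eb1. Whether the pair bears on these calls was not tested. A match describes the letters of the window and not a bound site.

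All 10 genes rose with CIT in both sgCtr and sgNop16 cells, from 2.23-fold for Cd74 to 9.42-fold for H2-Ob in sgCtr cells. By edgeR the highest adjusted p was that of H2-Oa, at 1.55e-15 with sgCtr and 1.94e-12 with sgNop16. Over all tested genes, 41.7% were called in sgCtr cells, 20.6% as higher and 21.1% as lower. With sgNop16 the shares were 37.8%, 19.3% and 18.5%. The median log2 change of the 10 genes was 1.87 with sgCtr and 1.54 with sgNop16, against 0.02 and 0.01 over all genes. In each of the 10 genes every stimulated library lay above every unstimulated library of the same guide, which held for 25.5% of all genes with sgCtr and 24.3% with sgNop16. The reverse held for 25% and 22.7% of all genes. The 10 genes together took 0.326% ± 0.00491 (SD, n = 3) of all counts in unstimulated sgCtr cells and 0.921% ± 0.0205 after CIT. With sgNop16 these shares were 0.393% ± 0.00307 and 0.905% ± 0.00771.

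The guide difference of these genes depended on the state of the cells. Without CIT, 8 of the 10 genes were higher in sgNop16 than in sgCtr cells and 0 were lower by edgeR (0 also at an unadjusted p under 0.05 and with DESeq2), where 4.06% of all genes were called, 2.14% as higher and 1.92% as lower. In 9 of the 10 genes all 3 sgNop16_no libraries lay above all 3 sgCtr_no libraries, against 9.44% of all genes above and 9.4% below. With CIT, 0 were higher and 2, H2-Oa and H2-Ob, were lower, where 7.12% of all genes were called, 4.05% as higher and 3.07% as lower. In 3 genes, Ciita, H2-Oa and H2-Ob, all sgNop16_CIT libraries lay below all sgCtr_CIT libraries, against 10.9% of all genes below and 13.2% above. At an unadjusted p under 0.05 edgeR gave 0 higher and 3 lower with CIT, and DESeq2 called 0 higher and 2 lower. The difference between the CIT responses, sgNop16 minus sgCtr, was called as lower for 9 genes and as higher for 0 (0 also at an unadjusted p under 0.05 and with DESeq2), against 2.83% of all genes called, 1.6% as lower and 1.23% as higher. That difference is by arithmetic the guide difference with CIT minus the one without, from the same 12 libraries, so it adds no independent observation. The median log2 value of the 10 genes was 0.26 without CIT, -0.01 with CIT and -0.31 for the difference of responses, against 0.00025, 0.0082 and 0.0069 over all genes.

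**Figure D1:**
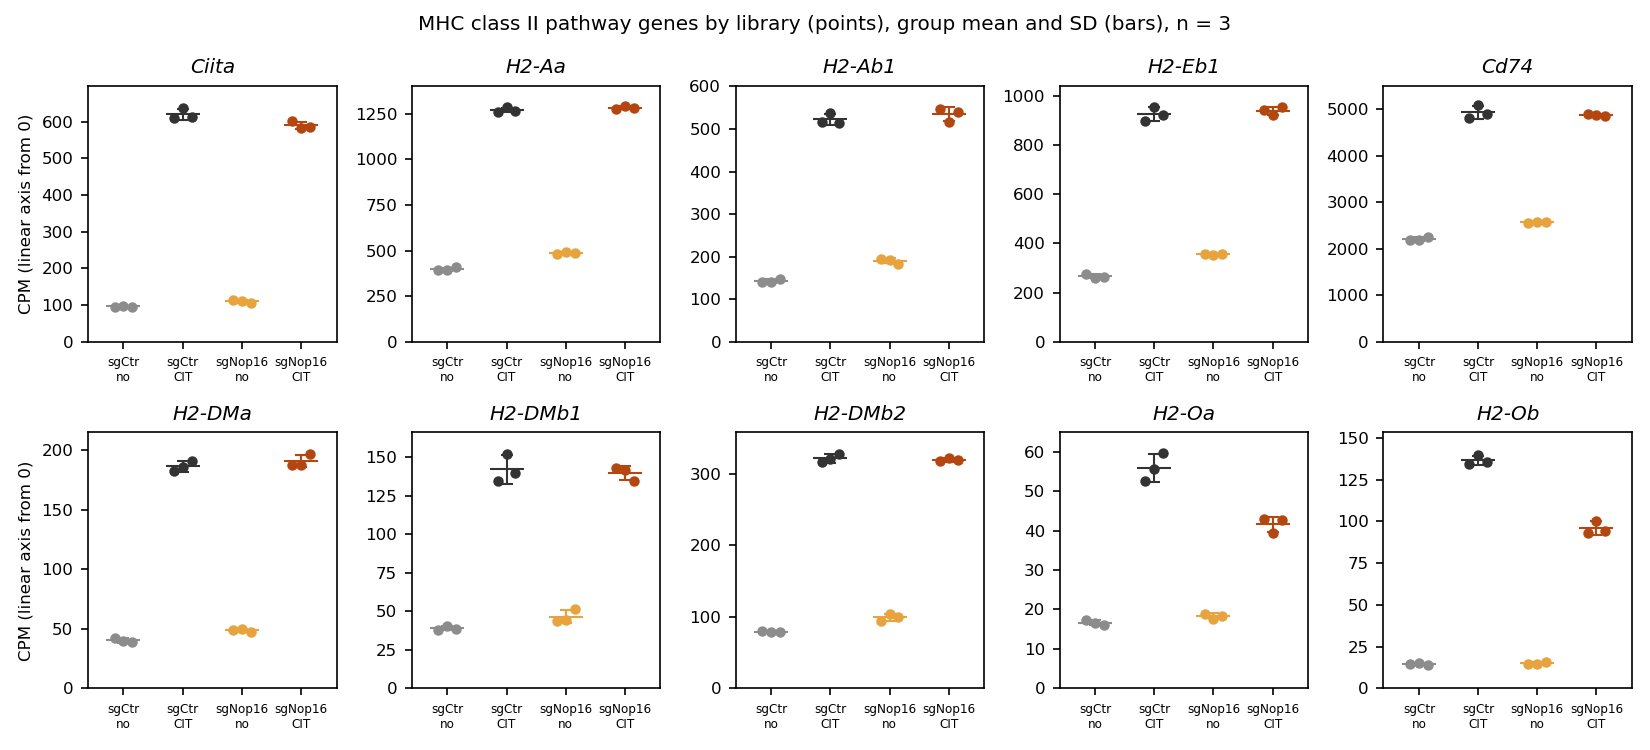
Levels of the 10 class II pathway genes in each of the 12 libraries (points, CPM on a linear axis from 0), with the group mean and SD over 3 libraries (bars). All stimulated libraries lie above all unstimulated ones in each panel, the sgNop16_no points lie above the sgCtr_no points in 9 panels and overlap them for H2-Ob, and with CIT the sgNop16 points lie below the sgCtr points for Ciita, H2-Oa and H2-Ob.

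Ciita (ENSMUSG00000022504, chromosome 16) encodes the class II transactivator, which is recruited by the complexes on class II promoters. How far the other members depend on it in these cells was not tested. It stood at 94.7, 98.4 and 95.9 CPM in the 3 sgCtr_no libraries and at 611, 637 and 613 CPM in the sgCtr_CIT libraries. In the sgNop16_no libraries it stood at 114, 111 and 105 CPM, and in the sgNop16_CIT libraries at 601, 582 and 587 CPM. The stimulated libraries were far above the unstimulated ones, the sgNop16_no libraries were all above sgCtr_no, and the sgNop16_CIT libraries were all below sgCtr_CIT. CIT raised Ciita 6.44-fold in cells with sgCtr (log2 2.69 ± 0.03, SE) and 5.35-fold in cells with sgNop16 (2.42 ± 0.03). Without CIT the log2 guide difference was 0.19 ± 0.03 (edgeR, adjusted p = 0.000453), and with CIT it was -0.07 ± 0.03, which was not called (edgeR, adjusted p = 0.180, 95% interval -0.13 to -0.01 before adjustment). The CIT response was smaller with sgNop16 by 0.27 on the log2 scale (edgeR, -0.27 ± 0.04, adjusted p = 0.000928). Exons of Ciita share 329 bases with Dexi on the opposite strand. No source used here gives the strand setting of the counting, so reads of the 2 genes cannot be told apart there.

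The chain genes H2-Aa (ENSMUSG00000036594, alpha chain of I-A), H2-Ab1 (ENSMUSG00000073421, beta chain of I-A) and H2-Eb1 (ENSMUSG00000060586, beta chain of I-E) lie on chromosome 17 and encode the peptide-binding molecules themselves. H2-Aa stood at 395, 393 and 408 CPM in sgCtr_no and at 481, 492 and 487 CPM in sgNop16_no libraries. In stimulated cells H2-Aa stood at 1259, 1285 and 1265 CPM in sgCtr and at 1273, 1289 and 1279.6 CPM in sgNop16 libraries. The unstimulated groups were thus apart and the stimulated groups overlapped. H2-Ab1 stood at 141, 140.2 and 148 CPM in sgCtr_no and at 195, 193 and 184 CPM in sgNop16_no libraries. After CIT the H2-Ab1 level was 516, 538 and 514 CPM in sgCtr and 548, 516 and 541 CPM in sgNop16 libraries. Here too the guide separated the libraries only before stimulation. H2-Eb1 stood at 277, 260.5 and 265 CPM in sgCtr_no and at 355, 354 and 357 CPM in sgNop16_no libraries. With CIT it stood at 897, 955 and 920.0 CPM in sgCtr and at 940.4, 919.5 and 953 CPM in sgNop16 libraries, which overlapped.

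The guide difference without CIT was largest, among the 10 genes, for these beta chains. H2-Eb1 was 1.33-fold higher in sgNop16_no cells (log2 0.41 ± 0.03, edgeR adjusted p = 2.33e-09) and H2-Ab1 was also 1.33-fold higher (0.41 ± 0.03, edgeR adjusted p = 3.08e-08). H2-Aa was 1.22-fold higher (0.29 ± 0.02, edgeR adjusted p = 1.45e-08). With CIT the 95% intervals of the log2 guide difference, before adjustment, ran from -0.03 to 0.06 for H2-Aa, from -0.03 to 0.10 for H2-Ab1 and from -0.03 to 0.08 for H2-Eb1. Each of these intervals lies below the difference of the same gene without CIT. CIT raised H2-Aa 3.19-fold in sgCtr and 2.63-fold in sgNop16 cells, H2-Ab1 3.65-fold and 2.81-fold, and H2-Eb1 3.46-fold and 2.64-fold. The differences between the responses were -0.28 ± 0.03 for H2-Aa, -0.38 ± 0.05 for H2-Ab1 and -0.39 ± 0.04 for H2-Eb1, and all 3 were called by edgeR.

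A pair of further chain genes of the region lie outside the named set. H2-Ea-ps, the I-E alpha gene, which the GRCm38 annotation lists as a polymorphic pseudogene, was detected at 301, 300.1 and 317 CPM in sgCtr_no and at 965, 999.7 and 966 CPM in sgCtr_CIT libraries. It also stood higher in sgNop16_no cells (log2 0.26 ± 0.03, edgeR adjusted p = 2.39e-06) and overlapped between guides with CIT (0.02 ± 0.03, adjusted p = 0.843). H2-Eb2, a second beta chain gene, stood at 16.9 ± 1.01 CPM (SD, n = 3) in sgCtr_no and at 47.4 ± 3.32 CPM in sgCtr_CIT cells. Its rise was called with both guides and its guide difference in neither state (edgeR, adjusted p = 0.700 and 0.878).

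Cd74 (ENSMUSG00000024610, chromosome 18), the invariant chain, had the highest level of the set and the smallest fold change. It stood at 2195, 2181 and 2254 CPM in sgCtr_no and at 2552, 2579.7 and 2579.9 CPM in sgNop16_no libraries. After CIT it stood at 4808, 5094 and 4902 CPM in sgCtr and at 4908, 4874 and 4847 CPM in sgNop16 libraries. Only the unstimulated groups were apart. CIT raised Cd74 2.23-fold in sgCtr (log2 1.16 ± 0.02) and 1.90-fold in sgNop16 cells (0.92 ± 0.02). The guide difference was 0.22 ± 0.02 without CIT (edgeR, adjusted p = 1.73e-07) and -0.02 ± 0.02 with CIT (adjusted p = 0.744, 95% interval -0.06 to 0.02). The difference between the responses was -0.23 ± 0.03 (edgeR, adjusted p = 1.68e-05).

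H2-DM, the peptide editor, is a pair of an alpha chain from H2-DMa (ENSMUSG00000037649) and a beta chain from H2-DMb1 (ENSMUSG00000079547) or H2-DMb2 (ENSMUSG00000037548), all on chromosome 17. H2-DMa stood at 42.5, 39.9 and 38.5 CPM in sgCtr_no and at 48.9, 49.9 and 47.1 CPM in sgNop16_no libraries. Stimulated libraries had 182, 186 and 191 CPM with sgCtr and 188, 188 and 197 CPM with sgNop16. The unstimulated groups were apart and the stimulated groups overlapped. H2-DMb2 stood at 80.3, 78.1 and 78.0 CPM in sgCtr_no and at 93.6, 104 and 99.99 CPM in sgNop16_no libraries. With CIT it stood at 316, 320.3 and 328 CPM in sgCtr and at 317, 322 and 319 CPM in sgNop16 libraries, which overlapped. H2-DMb1 followed the same order at a lower level, with 37.8, 40.5 and 38.7 CPM in sgCtr_no and 43.5, 44.6 and 51.6 CPM in sgNop16_no libraries. With CIT H2-DMb1 stood at 134, 152 and 139.6 CPM in sgCtr and at 143, 141 and 135 CPM in sgNop16 libraries.

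CIT raised H2-DMa 4.63-fold in sgCtr and 3.92-fold in sgNop16 cells, H2-DMb1 3.64-fold and 3.003-fold, and H2-DMb2 4.08-fold and 3.23-fold. Without CIT the log2 guide differences were 0.27 ± 0.04 for H2-DMa (edgeR, adjusted p = 0.000326), 0.26 ± 0.06 for H2-DMb1 (adjusted p = 0.0130) and 0.33 ± 0.04 for H2-DMb2 (adjusted p = 2.48e-06). With CIT none of the 3 was called by edgeR or DESeq2, also at an unadjusted p under 0.05 in edgeR, and the values lay between -0.02 and 0.03. The difference between the responses was called for H2-DMa (-0.24 ± 0.06, edgeR adjusted p = 0.0254) and H2-DMb2 (-0.34 ± 0.05, adjusted p = 0.000282). For H2-DMb1 it was of like size and not called (-0.28 ± 0.08, edgeR adjusted p = 0.0683). The coding sequences of H2-DMb1 and H2-DMb2 are 95.9% identical over 786 bases, with an identical run of 221 bases, so the split of reads between them is uncertain. Their sum stood at 118 ± 0.980 CPM in sgCtr_no and 146 ± 7.53 CPM in sgNop16_no cells, and its difference between the responses was called (-0.32 ± 0.05, edgeR adjusted p = 0.000295). The call for H2-DMa was lost, with adjusted p from 0.0507 to 0.0752, when sgCtr_no replicate 3, sgCtr_CIT replicate 2 or 3, sgNop16_no replicate 2 or sgNop16_CIT replicate 1 or 2 was left out. That of H2-DMb1 without CIT was lost without sgCtr_no replicate 1 (0.24, edgeR adjusted p = 0.0596) or sgNop16_no replicate 3 (0.18, adjusted p = 0.0919). Exons of H2-DMa share 360 bases with Brd2 on the opposite strand.

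H2-O, the inhibitor of H2-DM, is the pair of H2-Oa (ENSMUSG00000024334) and H2-Ob (ENSMUSG00000041538), also on chromosome 17, and it is found mainly in B cells and a few other cell types. These were the 2 members called for the guide after stimulation. H2-Oa stood at 17.3, 16.5 and 16.1 CPM in sgCtr_no and at 18.9, 17.7 and 18.4 CPM in sgNop16_no libraries. After CIT the H2-Oa level was 52.5, 55.7 and 59.6 CPM in sgCtr and 42.9, 39.4 and 42.6 CPM in sgNop16 libraries. The stimulated sgNop16 libraries were thus all below the stimulated sgCtr libraries. H2-Ob stood at 14.4, 15.004 and 14.1 CPM in sgCtr_no and at 14.6, 14.5 and 15.98 CPM in sgNop16_no libraries, which overlapped. With CIT it stood at 134, 139.7 and 136 CPM in sgCtr and at 93.2, 100.5 and 94.3 CPM in sgNop16 libraries, again without overlap.

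H2-Ob had the largest rise of the set, 9.42-fold in sgCtr (log2 3.24 ± 0.06) and 6.38-fold in sgNop16 cells (2.67 ± 0.05). H2-Oa rose 3.37-fold (1.75 ± 0.07) and 2.27-fold (1.18 ± 0.07). With CIT, H2-Ob was lower in sgNop16 cells by 0.51 on the log2 scale (edgeR, -0.51 ± 0.05, adjusted p = 4.00e-07) and H2-Oa by 0.43 (edgeR, -0.43 ± 0.07, adjusted p = 0.000205). Without CIT neither was called, at 0.05 ± 0.06 for H2-Ob (edgeR, adjusted p = 0.773) and 0.14 ± 0.07 for H2-Oa (adjusted p = 0.353), where all 3 sgNop16 libraries of H2-Oa were above sgCtr. The differences between the responses were -0.56 ± 0.07 for H2-Ob (edgeR, adjusted p = 0.000103) and -0.57 ± 0.10 for H2-Oa (adjusted p = 0.00155). Exons of H2-Oa share 321 bases with BC051537 on the opposite strand.

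**Figure D2:**
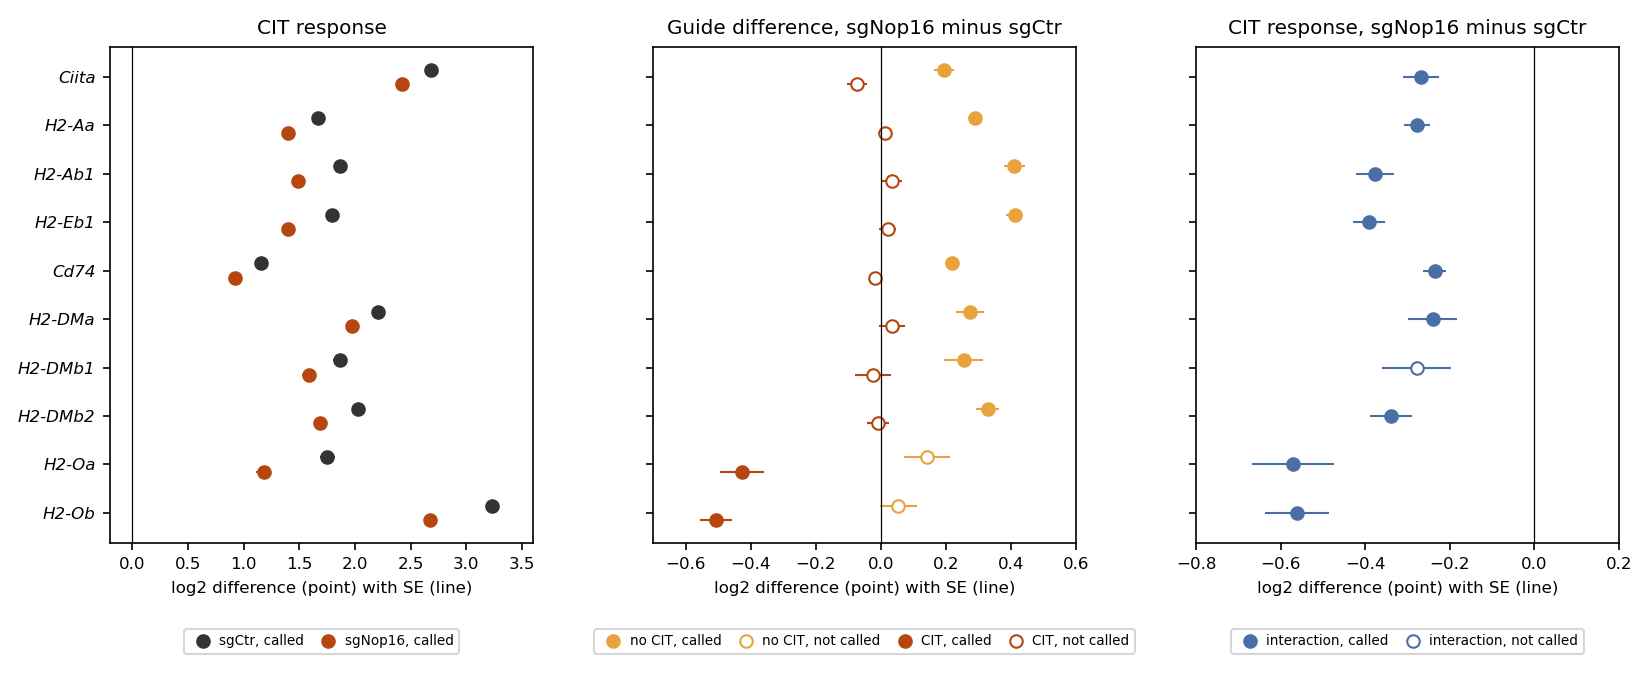
Log2 differences of the 10 genes with their SE (lines) from edgeR: the CIT response with each guide (left), the guide difference in each state (middle) and the difference between the CIT responses (right). Filled points were called at an adjusted p under 0.05. In the middle panel 8 genes are filled to the right of 0 without CIT, and with CIT only H2-Oa at -0.43 and H2-Ob at -0.51 are filled.

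The order of levels, taken per kilobase of exon so that genes can be set side by side, was led in all 4 groups by Cd74, followed by H2-Eb1, H2-Aa, H2-Ab1, H2-DMb2 and H2-DMb1, and H2-Ob was last. In sgCtr_no cells Cd74 stood at 1316 ± 23.2 CPM per kb (SD, n = 3), H2-Eb1 at 137 ± 4.30 and H2-Ob at 2.69 ± 0.0852. In sgCtr_CIT cells the same genes stood at 2939 ± 87.0, 475 ± 14.97 and 25.4 ± 0.525 CPM per kb. Ciita, H2-DMa and H2-Oa changed places among themselves. In sgCtr_no cells H2-Oa (11.8 ± 0.435 CPM per kb) and H2-DMa (11.7 ± 0.587) overlapped, and Ciita followed at 10.1 ± 0.198. In sgCtr_CIT cells Ciita (65.1 ± 1.53) stood above H2-DMa (54.0 ± 1.24) and H2-DMa above H2-Oa (39.8 ± 2.52). Neighbours in the order did not overlap over their 3 libraries, except H2-Oa and H2-DMa in sgCtr_no cells. The exon lengths are those of all exons of a gene joined in the GRCm38 annotation, not of the transcripts expressed here, so the order depends on them. H2-Aa has 3798 such bases and H2-Eb1 has 1944. In CPM H2-Aa stood above H2-Eb1 in all 4 groups, at 398 against 267 in sgCtr_no and 1270 against 924 in sgCtr_CIT cells.

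The balance between genes of 1 function was followed as a ratio in each library, of which only the change between groups is read, since the genes differ in length. The ratio of H2-DMa to H2-Oa was 2.46, 2.41 and 2.40 in sgCtr_no, 3.47, 3.34 and 3.199 in sgCtr_CIT, 2.59, 2.83 and 2.55 in sgNop16_no and 4.38, 4.76 and 4.62 in sgNop16_CIT libraries. It was thus higher after CIT and higher with sgNop16 in either state, without overlap. The ratio of H2-DMb1 plus H2-DMb2 to H2-Ob was 8.23, 7.91 and 8.27 in sgCtr_no, 3.36, 3.38 and 3.45 in sgCtr_CIT, 9.37, 10.2 and 9.49 in sgNop16_no and 4.94, 4.61 and 4.81 in sgNop16_CIT libraries. It was lower after CIT and, as for the alpha chains, higher with sgNop16 in either state. Summed over all 5 genes, the log2 ratio of H2-DM to H2-O changed with CIT by -0.59 in sgCtr and by -0.30 in sgNop16 cells, and the sgNop16 minus sgCtr difference was 0.20 without and 0.48 with CIT. The exact two-sided permutation test of 3 against 3 libraries gave p = 0.1 for each of these 4 differences, the smallest p it allows (0.133 adjusted over 36 differences of 9 ratios). The sign of the CIT change depends on how the genes are joined: with levels per kilobase it was -0.16 with sgCtr and 0.12 with sgNop16. The guide difference was above 0 in every form tried, at 0.13 to 0.25 without and 0.45 to 0.50 with CIT.

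The ratio of Cd74 to the 4 chain genes H2-Aa, H2-Ab1, H2-Eb1 and H2-Ea-ps was 1.97, 1.99 and 1.98 in sgCtr_no and 1.32, 1.35 and 1.34 in sgCtr_CIT libraries. In sgNop16_no libraries it was 1.84, 1.83 and 1.83, and in sgNop16_CIT libraries 1.31, 1.30 and 1.29. The chain genes thus rose more than the invariant chain with CIT, and the ratio was lower with sgNop16 than with sgCtr in each state, with log2 differences of -0.11 without and -0.04 with CIT (exact permutation p = 0.1 for each, the smallest possible). The ratio of H2-Aa to H2-Ab1, which encode partners of 1 heterodimer, changed by -0.19 on the log2 scale with CIT in sgCtr cells. Its change of -0.09 in sgNop16 cells went with overlapping libraries (exact permutation p = 0.2). The log2 guide difference of this ratio was -0.12 without CIT, without overlap (exact permutation p = 0.1, the smallest possible). With CIT it was -0.02, with overlapping libraries (exact permutation p = 0.6).

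**Figure D3:**
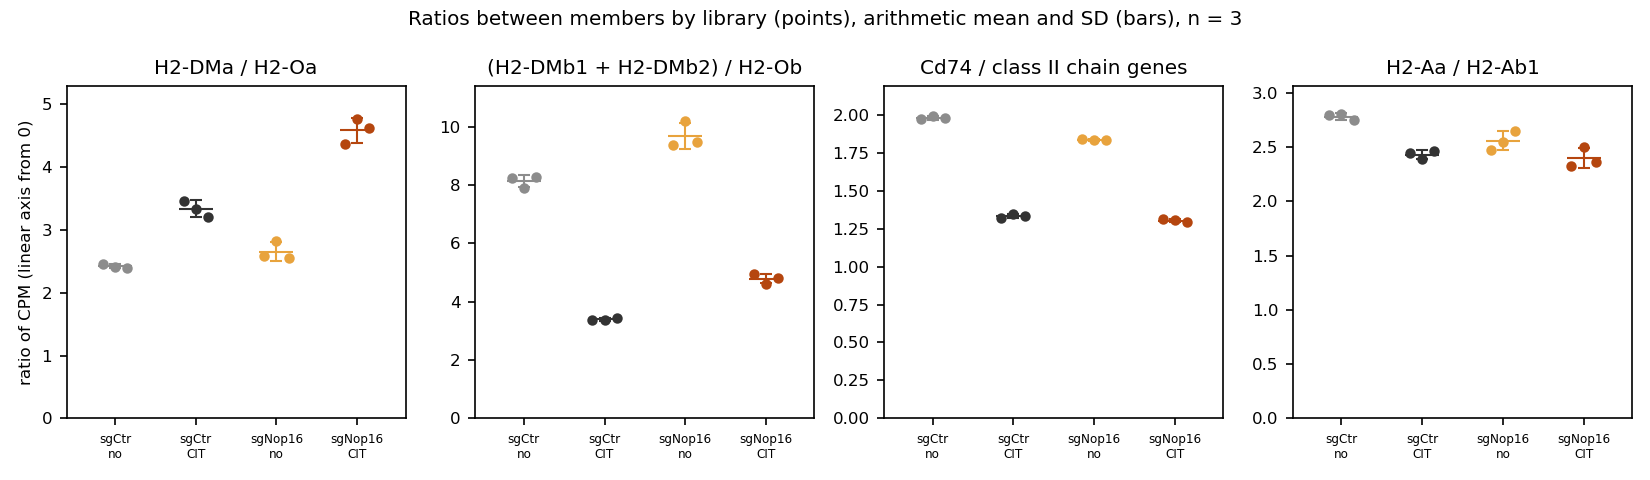
Ratios of CPM between class II pathway genes in each library (points), with the arithmetic mean and SD over 3 libraries (bars), on linear axes from 0. In the left 2 panels, editor over inhibitor, the sgNop16 points lie above the sgCtr points in each state, and Cd74 over the chain genes falls from about 1.98 to about 1.34 with CIT in sgCtr cells.

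Factors that act upstream of class II genes were taken from lists. Of the 7 subunits of complexes that bind class II promoters, CIT raised 3 in sgCtr cells (Creb1 by 0.35 ± 0.04 on the log2 scale, Rfxank by 0.40 ± 0.07 and Nfya by 0.14 ± 0.04) and lowered Rfxap (-0.23 ± 0.04). In sgNop16 cells 3 were higher and 2 lower, Rfx5 at -0.17 ± 0.06 being the second. Over all genes 20.6% were called as higher and 21.1% as lower with sgCtr, and 19.3% and 18.5% with sgNop16, so these counts are not far from the background. None of the 7 was called for the guide in either state or for the difference between the responses, by edgeR or by DESeq2, where 4.06%, 7.12% and 2.83% of all genes were called by edgeR and 0 of 7 is near the background. At an unadjusted p under 0.05 edgeR gave 1 in each of these 3 comparisons, Rfxap without CIT, Creb1 with CIT and Rfxap for the difference. Their median guide difference was -0.05 without and -0.00054 with CIT.

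Of 11 factors known to act on Ciita, 2 rose and 3 fell with CIT in sgCtr cells, and 3 rose and 3 fell in sgNop16 cells. These shares are near those over all genes (41.7% called with sgCtr and 37.8% with sgNop16). Prdm1, the plasma cell factor that represses Ciita, fell by 2.26 on the log2 scale with sgCtr (-2.26 ± 0.23) and by 1.82 with sgNop16 (-1.82 ± 0.23), from 9.34 ± 1.31 and 5.69 ± 0.953 CPM to 1.95 ± 0.747 and 1.61 ± 0.141 CPM (SD, n = 3). Its guide difference without CIT was -0.72 ± 0.22, with all 3 sgNop16 libraries lower, and was not called (edgeR, adjusted p = 0.0689). For the guide 1 of the 11 was higher and 1 lower without CIT, and 1 was higher and 2 were lower with CIT, against 4.06% and 7.12% of all genes called. Ets1, a transcription factor of lymphocytes, was lower with sgNop16 in both states (-0.29 ± 0.03 and -0.33 ± 0.03). With CIT, Irf4, a factor of activated B cells, was higher (0.18 ± 0.04, edgeR adjusted p = 0.00447).

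Irf8, an interferon regulatory factor of B and myeloid cells, was higher with sgNop16 before CIT, as the chain genes were, and lower after it, as H2-Oa and H2-Ob were. It stood at 150, 158 and 152 CPM in sgCtr_no and at 168, 183 and 177 CPM in sgNop16_no libraries. With CIT it stood at 261, 290.2 and 269 CPM in sgCtr and at 226, 219 and 213 CPM in sgNop16 libraries. The guides were apart in both states, in opposite order. The log2 guide difference was 0.20 ± 0.04 without CIT (edgeR, adjusted p = 0.00505) and -0.32 ± 0.04 with CIT (adjusted p = 1.74e-05). The difference between the CIT responses was -0.52 ± 0.06 (edgeR, adjusted p = 8.25e-06), and Irf8 was the only one of the 11 factors for which it was called by edgeR.

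Of 11 genes for endosomal processing 10 were tested, and Ctsl, with at most 0.383 CPM, was not. CIT raised 6 and lowered 2 of them with either guide, where 20.6% of all genes were called as higher and 21.1% as lower with sgCtr, and 19.3% and 18.5% with sgNop16. Ifi30, a thiol reductase of endosomes, rose by 1.75 ± 0.04 on the log2 scale with sgCtr and 1.64 ± 0.04 with sgNop16, and the protease gene Ctsh rose by 1.42 ± 0.03 and 1.14 ± 0.03. Lgmn and Ctsc, which encode the proteases legumain and cathepsin C, fell by 1.31 (-1.31 ± 0.05) and 0.56 (-0.56 ± 0.03) with sgCtr. Without CIT, 5 were higher and 1 lower with sgNop16, against 2.14% and 1.92% of all genes. The lower one was Lgmn (-0.21 ± 0.05, edgeR adjusted p = 0.0144), and Ctsc was among the 5 (0.12 ± 0.03, adjusted p = 0.0192). Ctsh, at 0.31 ± 0.03 without CIT and 0.04 ± 0.03 with CIT (edgeR, adjusted p = 2.06e-06 and 0.642), was called only without CIT, as the chain genes were. Cst3, a protease inhibitor (0.39 ± 0.04 and 0.23 ± 0.04), Ctss, the protease known for the last cut of Cd74 (0.22 ± 0.04 and 0.14 ± 0.04), and Ctsz (0.26 ± 0.04 and 0.25 ± 0.04) were called as higher in both states. With CIT, 3 were higher and 2, Lgmn (-0.48 ± 0.05) and Ctsc (-0.29 ± 0.03), were lower, against 4.05% and 3.07% of all genes. Lgmn was thus lower in both states, and the guide difference of Ctsc changed direction between them. The difference between the responses was called for Ctsh (-0.28 ± 0.05), Ctsc (-0.41 ± 0.04) and Lgmn (-0.27 ± 0.07), all lower, and for none higher by edgeR, DESeq2 or edgeR's unadjusted p, against 1.6% of all genes lower and 1.23% higher.

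Of 5 listed genes for the turnover of class II at the surface, 3 were found in the count table by name, and all 3 were tested. March1, a ubiquitin ligase of class II, was at or near 0 in all groups, at most 0.461 CPM in any library. March8, a related ligase, was called in 0 comparisons by edgeR, and its log2 difference with CIT in sgCtr cells (0.14 ± 0.07) had an unadjusted p of 0.0435. Cd83, which protects class II from March1, was lower with sgNop16 after CIT, at 149 ± 9.71 against 169 ± 12.5 CPM (SD, n = 3, log2 -0.18 ± 0.05, edgeR adjusted p = 0.0235). The libraries nearly met, at most 159.188 CPM with sgNop16 and at least 159.235 CPM with sgCtr. It was the only 1 of the 3 called there, where 3.07% of all genes were called as lower.

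**Figure D4:**
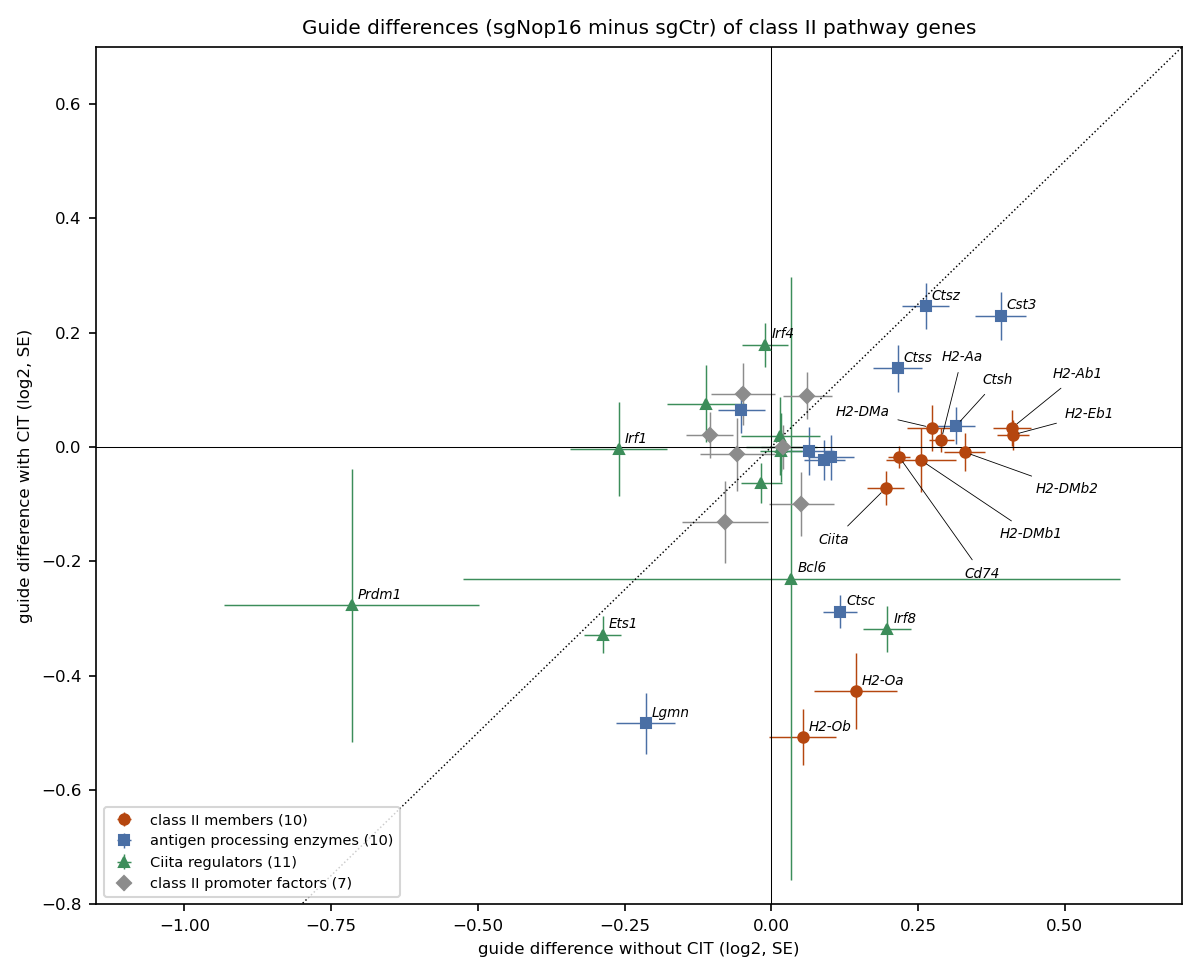
Log2 guide difference (sgNop16 minus sgCtr, with SE as lines) without CIT on the x axis and with CIT on the y axis, for the 10 class II genes and 28 tested genes of 3 related lists; the dotted line marks equal differences. The chain, Cd74 and H2-DM genes lie to the right near 0 on the y axis, H2-Oa and H2-Ob lie below 0, near Irf8 and Ctsc, and genes of the promoter complexes lie around the origin.

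Genes whose levels ran most like 2 of the members were looked up among 10285 tested genes with a mean of at least 5 CPM, by Pearson's r of log2 CPM over the 12 libraries, members left out. Nearest to Ciita were Ifngr2 (a chain of the interferon gamma receptor), Lgals3bp, Colgalt1, B4galt1 and Sema4d, with r from 0.998 to 0.999. Nearest to H2-Eb1 were Ctsh, Rogdi, Haao, Bhlhe40 and Vwa5a, with r from 0.997 to 0.998. The 10 members correlated with each other at r from 0.968 to 0.999 over 45 pairs. These 12 libraries fall into stimulated and unstimulated sets, so high values follow that split too, and the pairs share their libraries and scaling.

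Among markers of other cells that carry class II, the macrophage markers summed to between 7.40 and 8.49 CPM in sgCtr_no, 9.32 and 10.7 CPM in sgNop16_no, 11.9 and 15.1 CPM in sgCtr_CIT and 15.9 and 18.3 CPM in sgNop16_CIT libraries. Most of this came from Cd68 and Csf1r, while Cd14, Lyz2, Fcgr1, C1qa and Mertk were at 0. Of the 3 that could be tested, Cd68 was called in 0 comparisons by edgeR (0 also at an unadjusted p under 0.05), and Csf1r was called as higher with CIT under both guides but not for the guide (edgeR, adjusted p = 0.0938 without and 0.0545 with CIT). Adgre1 was the one called for the guide, without CIT, from 0 counts in sgCtr_no to 0.129, 0.406 and 0.422 CPM in sgNop16_no libraries (edgeR, adjusted p = 0.00216), where 2.14% of all genes were called as higher. DESeq2 called 0 of the 3 there. With CIT Adgre1 was called as higher in sgCtr cells, at 0.686 ± 0.258 CPM (SD, n = 3, edgeR adjusted p = 1.25e-05), but not in sgNop16 cells. The difference between its responses was called as lower by edgeR (adjusted p = 0.0195), and DESeq2 called 0 of the 3 for it. Csf1r stood at 0.811 ± 0.144 CPM in sgCtr_no, 1.46 ± 0.541 in sgNop16_no, 4.54 ± 0.941 in sgCtr_CIT and 7.75 ± 1.27 in sgNop16_CIT cells. The dendritic cell markers, of which Clec9a, Cd209a and Clec10a were at 0, summed to between 200.1 and 208 CPM in sgCtr_no and 223 and 226 CPM in sgNop16_no libraries, with 176 to 193 CPM in sgCtr_CIT and 203 to 208 CPM in sgNop16_CIT libraries. Ccr7, Batf3 and Zbtb46 made up nearly all of that sum, and they went in different directions. Of the 6 tested, edgeR called 4 as higher and 1 as lower with CIT under either guide. Over all genes 20.6% were called as higher and 21.1% as lower with sgCtr, and 19.3% and 18.5% with sgNop16. Ccr7 was among the 4 only with sgCtr and Xcr1 only with sgNop16. Siglech was among them at means of only 0.299 and 0.186 CPM in sgCtr_CIT and sgNop16_CIT cells. The lower one was Batf3, from 74.9 ± 3.196 to 31.2 ± 2.71 CPM (SD, n = 3) in sgCtr cells, while Zbtb46 rose there from 15.2 ± 0.321 to 25.7 ± 1.32 CPM. For the guide 1 of the 6 was higher without CIT (Ccr7) and 2 with CIT (Zbtb46 and Flt3), against 2.14% and 4.05% of all genes. T cell markers summed to between 183 and 216 CPM, nearly all of it Lck, and fibroblast markers to between 1.41 and 5.66 CPM over the 12 libraries. The part of these markers in the class II differences was not tested. The summed B cell markers lay between 4187 and 4257 CPM in sgCtr_no, 4002 and 4115 CPM in sgCtr_CIT, 3835 and 3878 CPM in sgNop16_no and 3715 and 3812 CPM in sgNop16_CIT libraries. With CIT edgeR called 2 of the 8 B cell markers as higher and 4 as lower in sgCtr cells, against 20.6% and 21.1% of all genes. In sgNop16 cells it called 2 as higher and 5 as lower, against 19.3% and 18.5%. For the guide edgeR called 3 of the 8 as lower with sgNop16 without CIT and 4 with CIT, against 1.92% and 3.07% of all genes. Among them Ms4a1, which encodes CD20, had log2 guide differences of -0.13 ± 0.03 and -0.54 ± 0.03.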

How the data were processed

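RNA of 12 libraries was sequenced, and the authors deposited their estimated counts as whole numbers, not scaled to library size, over 56941 genes. Per the submitters' processing notes HISAT2 2.2.1, StringTie 2.2.1 and GRCm39 were used, in roles they do not give, and a directional kit is named in the labels' protocols. Low values were in excess at 4, so 1 fragment may be worth about 4 counts, which no source states; depth in fragments is then unknown. Values were not divided in the main analysis. Symbols were matched through a GRCm38 annotation for 51948 genes; unnamed genes held 0.286 to 0.365% of the counts. Promoter coordinates are of GRCm38.p6 and were not converted.

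Genes were filtered with filterByExpr, leaving 16794, and tested with edgeR 4.0.16 (R 4.3.3): TMM factors (0.985 to 1.013), 1 mean per group over all 12 libraries and a quasi-likelihood F test with a robust prior. Coding sequences were aligned with Biopython 1.88. Replicate numbers are not stated to pair libraries, and no effect shared by a number was seen: of 18 correlations of their deviations between groups, -0.04 to 0.02, 0 were over 0.1. This does not show whether libraries of 1 number were prepared together. Replicates differed by more than sampling noise, if 1 fragment is worth 4 counts (mean chi-square 2.19 to 3.66). Alternatives were RLE factors, library totals, other filters, DESeq2 1.42.0, a 1.5-fold minimum, values divided by 4, a replicate block and leaving out each library.

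The members and lists were chosen with earlier results of these data known. All 10 members, Nop16 and genes of the lists on promoter factors, Ciita regulators, processing, turnover and other class II genes could be named, with markers where needed and the 5 genes most like Ciita and H2-Eb1. Of the Ciita regulators 1 gene is not reported here. The fits were tested on simulated data.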

Additional observations from a re-analysis of the deposited data

Results flagged for a closer look

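The CIT response differed between the guides for 9 of the 10 class II genes, by the interaction term of edgeR, where 2.83% of all genes were called and 1.6% as lower. On the log2 scale, sgNop16 minus sgCtr, the difference was -0.27 for Ciita, -0.28 for H2-Aa, -0.38 for H2-Ab1, -0.39 for H2-Eb1, -0.23 for Cd74, -0.24 for H2-DMa, -0.34 for H2-DMb2, -0.57 for H2-Oa and -0.56 for H2-Ob. For 7 of these the guide difference was called before stimulation and not after it, and for H2-Oa and H2-Ob it was called after stimulation and not before. The libraries of one guide and state enter all of these values, so they are not independent of each other.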

How the results depend on the processing

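Under 21 or 22 alternatives a result, the members called stayed at 10 and 10 for the CIT responses, and within 1.5 times of 8, 2 and 9 for the guide difference without CIT, with CIT and their difference, except that a 1.5-fold minimum left 0, 0 and 0, since the fitted differences are smaller than that. With the replicate block the counts were 10, 10, 8, 2 and 9. The log2 change of H2-DM over H2-O with CIT in sgCtr cells was -0.16 per kilobase, 0.46 as H2-DMa over H2-Oa and -1.26 as H2-DMb1 and H2-DMb2 over H2-Ob. In sgNop16 cells the same forms gave 0.12, 0.79 and -1.02. The guide difference without CIT was 0.13 as H2-DMa over H2-Oa and 0.25 as the beta genes over H2-Ob, and with CIT it was 0.45 per kilobase and 0.46 as H2-DMa over H2-Oa. Uncalled guide differences with CIT changed sign when 1 library was left out: H2-Eb1 ranged from -0.00029 (without sgCtr_CIT replicate 1) to 0.045, Cd74 from -0.036 to 0.0064 (sgCtr_CIT replicate 2), H2-DMb1 from -0.063 to 0.0298 (sgCtr_CIT replicate 2; 0.00165 without sgNop16_CIT replicate 3) and H2-DMb2 from -0.022 to 0.0056 (sgCtr_CIT replicate 3). For the difference of the responses the call of H2-DMa was lost without any 1 of the 6 libraries named with its values, at adjusted p up to 0.0752 (edgeR). H2-DMb1 was called for it with library totals, a filter of 5 CPM, values divided by 4, DESeq2, and without sgNop16_no replicate 1 (-0.34, adjusted p = 0.0356) or 2 (-0.32, adjusted p = 0.0478). Its guide difference without CIT was also not called with only the groups compared (adjusted p = 0.0516). With library totals, calls over all genes without CIT were 446 higher and 233 lower against 360 and 322, and 138 and 327 against 207 and 268 for the difference of the responses. Leaving out 1 library moved some counts over all genes by more than 1.5 times. Without CIT, the 322 lower became 184 or 189 without sgCtr_no replicate 1 or 2 and 186 or 198 without sgNop16_no replicate 1 or 2. With CIT, the 680 higher became 449 without sgCtr_CIT replicate 3 and 412 or 451 without sgNop16_CIT replicate 2 or 3. For the difference of the responses, the 207 higher became 122, 127 or 133 without sgCtr_no replicate 1, 2 or 3, 137 or 134 without sgCtr_CIT replicate 2 or 3, 100 (lowest), 124 or 132 without sgNop16_no replicate 1, 2 or 3, and 126 without sgNop16_CIT replicate 2. DESeq2 gave 366 higher there. With the 1.5-fold minimum the counts higher and lower over all genes were 973 and 375 for CIT with sgCtr (3456 and 3551 without it), 848 and 372 with sgNop16 (3239 and 3104), 3 and 0 for the guide without CIT, 1 and 4 with CIT (680 and 515) and 0 and 1 for the difference of the responses. Among values for single genes under the alternatives, 1051 kept direction and call, 28 lost a call, 6 gained one and 5 changed sign.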
